A study of Mus musculus with 17 samples.

Results

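Long-term hematopoietic stem cells (LT-HSC) and short-term hematopoietic stem cells (ST-HSC) of mouse bone marrow were compared on single-color mRNA microarrays, as the first step in which a stem cell gives up durable self-renewal. The members were chosen by the cell type in the sample labels: 2 LT-HSC and 3 ST-HSC arrays, 5 of the 17 arrays in the series, which covers 6 stem and progenitor populations. All cells came from young adult female C57Bl/6 mice, with no treatment or transgene given for any group, and the marrow of several mice was pooled for each sample. After depletion of cells carrying B220, CD3, Gr-1 or Ter119 and enrichment for c-kit, LT-HSC were sorted as lineage-negative, ckit+, Sca1+, CD34- and FLT3- cells, and ST-HSC as lineage-negative, ckit+, Sca1+, CD34+ and FLT3- cells. Multipotent progenitors (MPP), which are used below only for orientation, shared this gate but were CD34+ and FLT3+.

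A long-term stem cell divides rarely and can rebuild all blood lineages for the life of a host, whereas a short-term stem cell cycles more often and sustains blood for a limited time. Many genes of mature lineages are already transcribed at low levels in such cells, a state called lineage priming. In bulk RNA from a sorted population, fewer cells of a type and less RNA per cell cannot be told apart.

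The 2 LT-HSC arrays differed in quality and position. One is labelled as a pool of replicates 2 and 3 (the pooled array), and the other carries no number. The 75th percentile of signal was 243 on the pooled array and 53.1 on the unnumbered LT-HSC array, against 337, 247 and 466 on ST-HSC arrays 2, 3 and unnumbered. Of all spots 54.6% and 41.4% were well above background on the LT-HSC arrays, and 56.7% to 70.1% on the ST-HSC arrays. Both LT-HSC arrays lay alone on 1 slide, so slide and population cannot be told apart, while ST-HSC arrays 2 and 3 were scanned in the same run on another slide. The unnumbered ST-HSC array belonged to a different scanner run. The labels do not say which samples shared mice. Pearson correlation across probes was 0.953 between the LT-HSC arrays, 0.975 between ST-HSC arrays 2 and 3, and 0.969 and 0.958 between the pooled LT-HSC array and ST-HSC arrays 2 and 3 (41174 probes, which are not independent), so the pooled array lay closer to these than to its own replicate. Over 16188 probes well above background on all 5 arrays the order was the reverse, with 0.955 between the LT-HSC arrays and 0.935 and 0.933 between the pooled array and ST-HSC arrays 2 and 3.

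Of 28090 gene names, 822 were higher in LT-HSC (2.93%) and 242 were lower (0.862%) at an adjusted p under 0.05 (limma, all 17 arrays, each name read on its brightest probe). Each of the 1064 called names (3.79%) had both LT-HSC arrays beyond all 3 ST-HSC arrays on the same side, compared with 14.4% of all names lying above and 13.7% lying below without overlap. Lack of overlap was thus common to all called names and sets none of those below apart. Size was another matter: the difference from the ST-HSC mean departed by more than 3 log2 units between the pooled and the unnumbered LT-HSC array for 23 of the higher and 1 of the lower names. Of the 822 higher names, 451 were well above background on both LT-HSC arrays, and 273 were so on none of the 5 arrays. Of the 242 lower names, 226 were well above background on every ST-HSC array, and 63 were so on no LT-HSC array.

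The number of calls rested strongly on the fit. With scaling by the 75th percentile in place of quantile normalization, 476 names were higher and 57 lower, so that 89.3% rather than 77.3% of calls were higher, and the median difference of all names moved from -0.04 to 0.18. Without the dim unnumbered LT-HSC array the counts were 649 and 101, and without the pooled array, where the lone sample is assumed to vary like the other populations, they were 2032 and 1084. Within the single scanner run that holds both populations 101 names were higher and 14 lower. Of the 81 called genes named by rule, 17 kept their call there, 64 lost it and 0 were reversed. Fitted on the 5 arrays alone, limma called 0 names, with 2525 at an unadjusted p under 0.05.

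**Figure D1:**
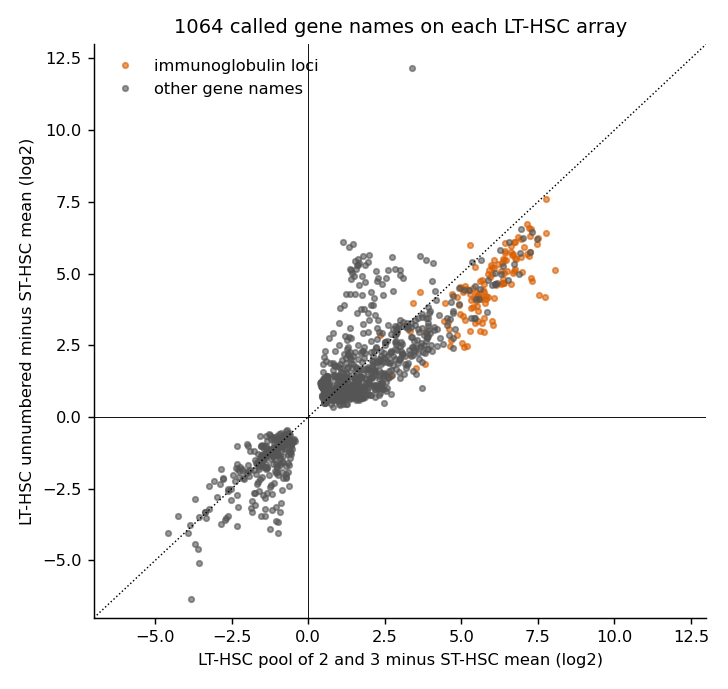
Each point is 1 of the 1064 called gene names. The x axis gives the pooled LT-HSC array minus the mean of the 3 ST-HSC arrays and the y axis the unnumbered LT-HSC array minus the same mean (both log2), with equality dotted. All points lie in the 2 quadrants where the LT-HSC arrays share a sign; orange points are the 125 higher names of the immunoglobulin loci, and the point near the top is St8sia1.

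The genes of the sort antigens did not separate the populations at the threshold. Values are normalized log2 intensities, given for the pooled and unnumbered LT-HSC arrays and then for ST-HSC arrays 2, 3 and unnumbered, followed by the LT-HSC minus ST-HSC difference ± SE from the fit. Cd34, the antigen that divides the gates, read 14.82 and 15.11 on the LT-HSC arrays and 15.88, 15.79 and 15.98 on the ST-HSC arrays (-0.92 ± 0.50, adjusted p = 0.388). Both LT-HSC arrays were the lower ones, although the message was well above background on both in the population sorted as CD34-. Ly6a, which encodes Sca1, read 10.96 and 9.98 against 8.28, 8.58 and 9.77 (1.60 ± 0.58, adjusted p = 0.164). Flt3, the receptor absent from both gates, read 7.58 and 8.90 against 6.99, 6.83 and 6.76 (1.38 ± 0.51, adjusted p = 0.171), with a mean of 9.93 in MPP. Kit, the stem cell factor receptor, read 11.81 and 11.38 against 11.74, 12.06 and 11.47 (-0.16 ± 0.26, adjusted p = 0.834), and its arrays overlapped.

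Defining markers of stem cells were present in both populations. None of the 7 markers measured (Slamf1, Procr, Fgd5, Hlf, Tek, Robo4 and Ctnnal1) passed the test. Hlf, a transcription factor of stem cells, read 12.69 and 12.63 against 12.28, 12.56 and 12.40 (0.24 ± 0.26, adjusted p = 0.708), and Procr, the protein C receptor, read 11.95 and 11.29 against 10.61, 10.78 and 11.44 (0.68 ± 0.33, adjusted p = 0.329). Slamf1, which encodes CD150, was low in both and overlapped, at 6.63 and 5.40 against 5.90, 6.29 and 5.99 (-0.04 ± 0.49, adjusted p = 0.986), and cleared the background on only 1 LT-HSC array. Cd48, a marker of progenitors, was lower on both LT-HSC arrays without passing the test, at 10.57 and 11.42 against 11.96, 12.26 and 11.92 (-1.05 ± 0.32, adjusted p = 0.0947). Some of these genes passed in single alternatives, Ly6a (1.98, adjusted p = 0.0260) and Cd48 (-1.15, 0.0227) with scanner run as a fixed block, Robo4 (0.84, 0.0319) with normexp background correction, Flt3 (2.04, 0.0447) without the pooled and Fgd5 (1.30, 0.0495) without the unnumbered LT-HSC array.

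**Figure D2:**
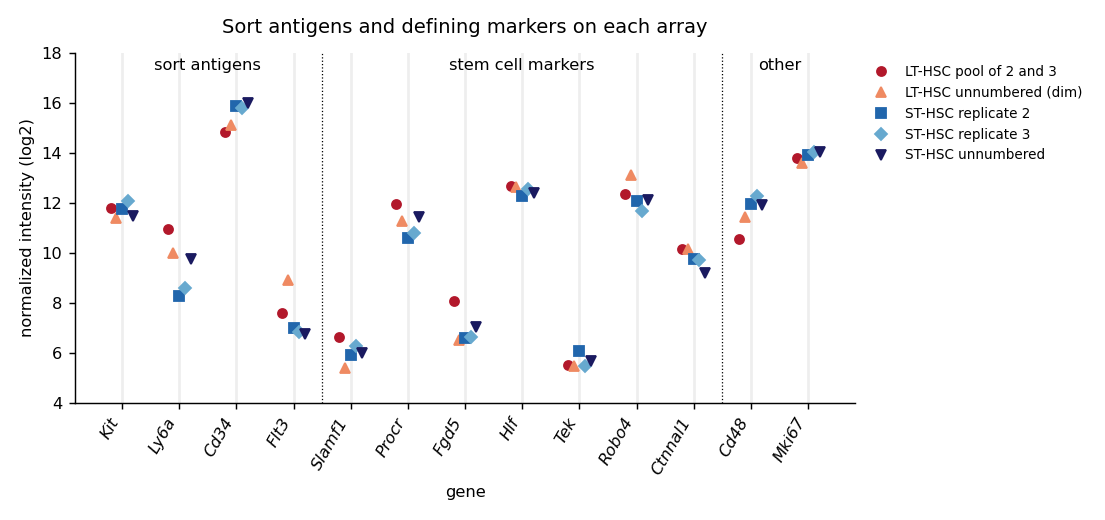
Normalized log2 intensity (y axis) of the 4 sort antigens, 7 stem cell markers and the genes Cd48 and Mki67 (x axis) on the 2 LT-HSC and 3 ST-HSC arrays, 1 point per array. Cd34 sits between 14.82 and 15.98 on all 5 arrays, and no gene shown passed the test.

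Among 24 surface proteins that mark subsets of stem cells, 3 were higher and 4 lower, against 2.93% and 0.862% of all names, with a median difference of -0.14 whose sign relative to all names turned in 4 alternatives. With slide as a random block 2 were higher and 0 lower. The largest fall was in Itga2b, the CD41 integrin of platelets and megakaryocyte-biased stem cells, which read 7.07 and 7.91 on the LT-HSC arrays and 9.73, 10.17 and 10.55 on the ST-HSC arrays (-2.66 ± 0.59, adjusted p = 0.0299). Selp, platelet P-selectin, read 6.80 and 6.48 against 8.43, 8.40 and 7.89 (-1.59 ± 0.37, adjusted p = 0.0375), and Cd244, a SLAM family receptor found on progenitors, read 8.46 and 8.84 against 10.08, 10.06 and 10.20 (-1.47 ± 0.35, adjusted p = 0.0384). These were lower on each LT-HSC array, as was every name called lower. Gpr56, an adhesion receptor, fell by less (-0.80 ± 0.16, adjusted p = 0.0172). On the other side, Thy1, the CD90 antigen, read 10.95 and 11.07 against 9.79, 9.98 and 10.22 (1.01 ± 0.16, adjusted p = 0.00426), Il7r, the interleukin-7 receptor, read 8.27 and 7.37 against 4.82, 5.04 and 5.68 (2.65 ± 0.57, adjusted p = 0.0249), and Clec1a, a C-type lectin, differed by 1.56 ± 0.36, adjusted p = 0.0363. The call of Cd244 was lost without any 1 of the 5 arrays (adjusted p = 0.0741 to 0.0983), and those of Itga2b, Clec1a, Selp, Il7r and Gpr56 without 2 to 4 of them (0.0503 to 0.232), while Thy1 held in all 5 such fits. Other probes of 2 of the higher genes did not bear this out, with -0.34 (adjusted p = 0.832) for the second Thy1 probe and 0.38 and -0.44 (0.511 and 0.865) for the other probes of Il7r, and both calls were lost where the probes of a gene were averaged (0.666 for Thy1 and 0.173 for Il7r).

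The wider list of 51 stem cell genes held 3 higher and 0 lower members, beside 2.93% of all names higher, with a median difference of 0.18. The higher count was 2 with slide as a random block, where Rarb was lost, and 1 without the pooled LT-HSC array, ST-HSC array 2 or ST-HSC array 3. So few calls in 51 set nothing about the list apart, and the members are given as single genes. Sult1a1, a sulfotransferase, read 9.43 and 8.38 against 6.34, 7.04 and 7.01 (2.11 ± 0.36, adjusted p = 0.00543), Ramp2, a partner of the adrenomedullin receptor, read 8.38 and 7.94 against 5.44, 5.85 and 6.13 (2.36 ± 0.49, adjusted p = 0.0210), and Rarb, a retinoic acid receptor, read 6.40 and 5.05 against 3.95, 3.92 and 4.31 (1.66 ± 0.41, adjusted p = 0.0441). Sult1a1 held without any single array, whereas Ramp2 and Rarb were each lost in 4 of the 5 fits that left out an array (adjusted p = 0.0514 to 0.184). The second Rarb probe differed by 0.53 (adjusted p = 0.761), and its call was also lost where the probes were averaged.

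Most of the largest positive differences in the whole comparison lay in the immunoglobulin loci. The heavy chain locus and the kappa and lambda light chain loci hold arrays of variable (V), joining (J) and constant segments, and a V segment is transcribed at a high level only in cells of the B lineage after it has been joined. This set was chosen after its values were seen. On the mm9 build used by the array annotation, 160 gene names fell within the spans of these loci, of which 125 were higher in LT-HSC and 0 lower, against 2.93% of all names. They made up 15.2% of the 822 higher names and 76 of the 100 largest differences. Outside the loci 697 of 27930 names were higher (2.50%).

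The probes that carried this result are shown so that it can be seen what they report. Each is 60 bases long and reads 5′ to 3′ as the array file gives it. Capitals mark the letters TATTNCTG, which cover a tyrosine codon and the start of the conserved cysteine codon near the end of a V segment, and TTCGG downstream of it, the phenylalanine and glycine codons with which the conserved part of many kappa J segments begins. Searched in this orientation only, the first pattern was found in 13.3% of 60 probes of described V segments and in 0.877% of all 41174 probes, and both in this order in 8 of all probes and 0 of the 60. The 2 probes shown with both are annotated as light chain mRNAs and are not among the 60. The set shown runs from kappa genes with 1 or both patterns to heavy chain segments with none.
Igk-V, chr6:67675592-67675651: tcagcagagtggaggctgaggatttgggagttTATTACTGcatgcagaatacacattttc
Igkv1-117, chr6:68071786-68071845: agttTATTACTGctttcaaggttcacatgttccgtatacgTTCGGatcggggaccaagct
Igk-V1, chr6:68071741-68071800: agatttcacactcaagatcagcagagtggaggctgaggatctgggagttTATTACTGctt
Igk-V19-14, chr6:70356453-70356512: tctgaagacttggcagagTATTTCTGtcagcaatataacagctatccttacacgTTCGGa
Ighv6-6, chr12:115630019-115630078: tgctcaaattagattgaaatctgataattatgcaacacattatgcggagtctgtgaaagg
Igh-V7183, chr12:114940379-114940437: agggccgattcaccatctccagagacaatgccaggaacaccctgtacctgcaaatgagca
Positions are those of the array annotation on mm9, and the probes of Igkv1-117 and Igk-V1 overlap there, so these are not separate targets.

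Igkv1-117, whose probe holds both patterns, read 10.21 and 9.08 on the LT-HSC arrays and 2.12, 2.21 and 5.20 on the ST-HSC arrays (6.47 ± 0.86, adjusted p = 0.00106), and Igk-V19-14, the other probe shown with both, read 10.22 and 7.79 against 2.15, 2.90 and 3.81 (6.05 ± 0.60, adjusted p = 0.000118). Igk-V read 12.78 and 12.03 against 3.57, 6.03 and 7.87 (6.58 ± 1.05, adjusted p = 0.00369) and Igk-V1 read 12.34 and 11.61 against 4.55, 5.39 and 7.78 (6.06 ± 0.77, adjusted p = 0.000704). For all of them both LT-HSC arrays were far above the ST-HSC arrays, and the unnumbered ST-HSC array was the highest of its population. Lack of overlap was shared by every called name. Some ST-HSC readings lay below the lowest signal well above background on their array. These were Igkv1-117 on ST-HSC arrays 2 and 3, and Igk-V19-14 on ST-HSC array 2 and the unnumbered one. Igh-V7183 read 11.93 and 10.73 against 4.94, 3.75 and 6.88 (6.14 ± 0.81, adjusted p = 0.000967). Ighv6-6 was not well above background on any ST-HSC array and was at least 30.2-fold higher in LT-HSC (adjusted p = 0.000683), where the fold is taken against the lowest signal that was well above background on each array. Its second probe differed by 1.77 (adjusted p = 0.127), and the call was lost with values raised to background. Igkv14-111 and Igk-V38 differed by 6.11 ± 1.02, adjusted p = 0.00498 and 5.96 ± 0.79, adjusted p = 0.00104. None of these calls was lost without any single array.

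Over the 59 gene names described as V segments, 55 were higher, 0 lower and all 59 positive in difference. Kappa segments gave 35 of 36, heavy chain segments 18 of 21 and lambda segments 2 of 2. The median over the 59 names was 10.49 and 9.02 on the pooled and unnumbered LT-HSC arrays and 3.40, 3.60 and 5.48 on ST-HSC arrays 2, 3 and unnumbered, against 3.16 to 3.80 on the MPP arrays. The 21 heavy chain segments alone had MPP medians of 4.89, 5.32 and 5.52, beside 3.65, 3.97 and 4.95 in ST-HSC and 10.14 and 7.72 in LT-HSC. All 59 were higher on the pooled than on the unnumbered LT-HSC array, and 49 were higher on the unnumbered ST-HSC array than on both numbered ones. Within the scanner run of both populations the median difference was 5.39. Of the 8 constant segments 2 were called, both higher. Igh-6, the IgM constant region, which is also transcribed from unjoined loci in early progenitors, read 15.997 and 15.105 against 11.99, 12.03 and 12.40 (3.41 ± 0.34, adjusted p = 0.000118), close to its MPP mean of 15.12. All 3 of its probes were called.

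**Figure D3:**
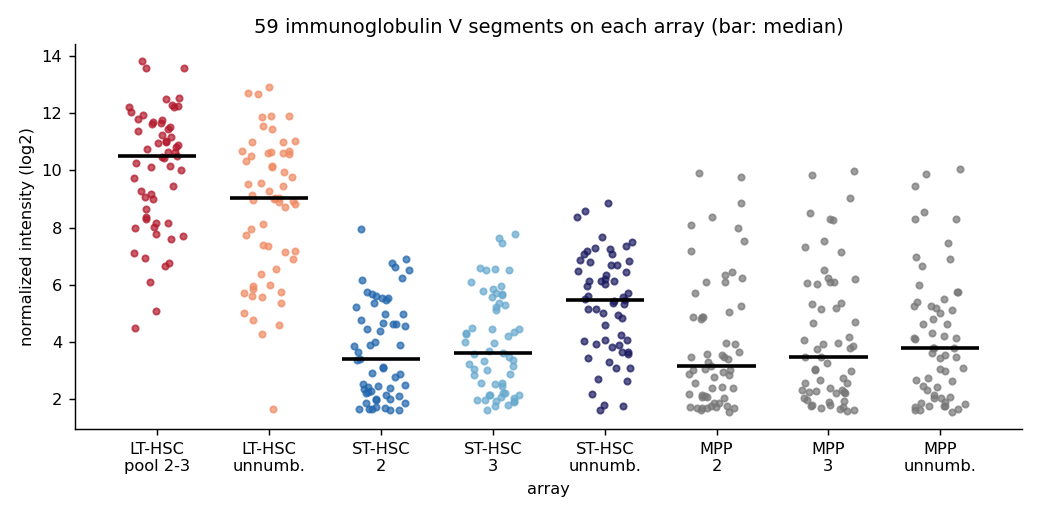
Normalized log2 intensity (y axis) of the 59 immunoglobulin V segments on each LT-HSC, ST-HSC and MPP array (x axis), 1 point per segment, with bars at the median of each array. The medians were 10.49 and 9.02 on the LT-HSC arrays and at most 5.48 on any ST-HSC or MPP array.

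Some genes of antibody-secreting cells were called higher, as were most V segments. On a list of 20 plasma cell genes, chosen after values were seen, 9 were higher and 0 lower, against 2.93% of all names higher, with a median difference of 2.33. With slide as a random block 7 were higher. Pou2af1, the coactivator of immunoglobulin transcription, read 14.72 and 13.51 on the LT-HSC arrays and 7.18, 7.41 and 8.79 on the ST-HSC arrays (6.32 ± 0.57, adjusted p = 6.12e-05). Tnfrsf17, the survival receptor BCMA of plasma cells, read 12.00 and 10.50 against 4.32, 3.51 and 6.46 (6.49 ± 0.69, adjusted p = 0.000187). Sdc1, which encodes CD138, read 10.61 and 9.39 against 5.62, 5.20 and 7.08 (4.03 ± 0.48, adjusted p = 0.000425). Both LT-HSC arrays exceeded every ST-HSC array for each of these genes, as for every name called higher. The transcription factors of plasma cell fate behaved alike, with differences of 4.79 ± 0.96, adjusted p = 0.0167 for Irf4 and 3.57 ± 0.65, adjusted p = 0.00869 for Prdm1, which cleared the background on only 1 LT-HSC array. Derl3, of the protein quality control of the endoplasmic reticulum, Slamf7 and Ell2, an elongation factor used in antibody secretion, were higher by 4.42, 4.33 and 2.26. The last called member, 2010001M09Rik, read 12.77 and 11.71 against 6.38, 6.22 and 7.45 (5.56 ± 0.39, adjusted p = 7.61e-06).

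Other members of that list did not pass. Xbp1, the secretory regulator, read 10.95 and 9.69 against 9.02, 8.12 and 8.95 (1.62 ± 0.45, adjusted p = 0.0691). Igj, the joining chain, read 16.73 on the unnumbered LT-HSC array against 10.37, 10.49 and 12.31 in ST-HSC, and its spot on the pooled array was left out as an outlier (5.67 ± 1.61, adjusted p = 0.0793). Irf4 lost its call without the pooled LT-HSC array or ST-HSC array 2 or 3 (adjusted p = 0.0506 to 0.0644), while the other 8 called members held. Summed over the 19 members measured on every array, the linear level was 83670 and 42119 on the LT-HSC arrays and 16448 to 19031 on the ST-HSC arrays.

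Defining B cell markers gave a mixed picture, with 4 of 12 list members higher, against 2.93% of all names, 0 lower and a median difference of 0.72. Over the 7 members whose probe was well above background on every LT-HSC or every ST-HSC array that median was 3.25. Members can pass that filter through the population where they are high, so the larger median is no separate evidence. Ms4a1, the CD20 antigen, read 10.06 and 8.92 against 3.78, 2.99 and 6.62 (5.02 ± 0.96, adjusted p = 0.0123), Faim3, the IgM Fc receptor, read 9.89 and 9.40 against 4.95, 3.98 and 6.59 (4.47 ± 0.66, adjusted p = 0.00232), and Vpreb3, of pre-B cells, read 9.04 and 7.86 against 5.03, 4.85 and 5.73 (3.25 ± 0.55, adjusted p = 0.00539), with Igh-6 the remaining one. The receptor chains did not pass: Cd79b read 12.63 and 11.98 against 11.18, 11.46 and 11.69 (0.87 ± 0.27, adjusted p = 0.1000), and Cd79a read 5.08 and 4.49 against 4.70, 4.79 and 3.71 (0.38 ± 0.47, adjusted p = 0.756). The last of these overlapped between populations and was well above background on 1 LT-HSC array. Igh-6 made up most of the summed level of this list, so the sum is given over the other 11 members, at 9104 and 5739 on the LT-HSC arrays, 2601 to 3690 on the ST-HSC arrays and 2888 to 3875 on the MPP arrays. The part of plasma or B cells in the differences of the immunoglobulin genes was not tested.

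Several of the largest differences outside the loci ranked the LT-HSC arrays and the unnumbered ST-HSC array in the same order. Wnt10a, a Wnt ligand, read 11.70 and 10.44 against 4.24, 2.67 and 5.84 (6.82 ± 0.83, adjusted p = 0.000483). Kcnmb4, a subunit of a potassium channel, read 9.58 and 8.20 against 2.08, 1.76 and 4.75 (6.02 ± 0.83, adjusted p = 0.00141), though it was not well above background on ST-HSC arrays 2 and 3. Fcrla, an Fc receptor-like protein of B cells, read 10.34 and 8.46 against 3.20, 1.87 and 5.32 (5.93 ± 0.84, adjusted p = 0.00164), and Rasgrp3, a Ras activator used downstream of the B cell receptor, read 10.71 and 9.41 against 4.38, 2.89 and 5.95 (5.65 ± 0.77, adjusted p = 0.00126). In each the pooled LT-HSC array was the highest and the unnumbered ST-HSC array led its population, and the calls held without any single array.

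The largest difference of all rested on 1 array. St8sia1, which makes the ganglioside GD3, read 8.87 on the pooled and 17.66 on the unnumbered LT-HSC array, against 5.18 to 5.87 in ST-HSC (7.78 ± 1.64, adjusted p = 0.0222). The difference was 3.39 without the unnumbered and 12.17 without the pooled LT-HSC array, the call was lost without ST-HSC array 2 or 3 (adjusted p = 0.0515 and 0.0645), and the other 2 probes of the gene differed by -0.22 and 0.13 (adjusted p = 0.876 and 0.938).

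Genes of lymphoid priming had mostly higher values in LT-HSC. Of 29 list members 6 were higher and 0 lower, against 2.93% of all names, and 26 were positive, with a median difference of 1.01. With slide as a random block 5 were called, without Igll1, and 4 without ST-HSC array 2 or 3. The median was 0.49 with normexp background correction and 0.40 with values raised to background. Igh-6 and Il7r, given above, were 2 of the 6. Blnk, the adaptor of the pre-B cell receptor, read 13.38 and 12.74 on the LT-HSC arrays and 9.12, 9.42 and 9.85 on the ST-HSC arrays (3.60 ± 0.50, adjusted p = 0.00137). Ccr9, a chemokine receptor of thymus-seeding cells, read 8.07 and 8.10 against 5.79, 5.38 and 5.56 (2.51 ± 0.31, adjusted p = 0.000625), and Arpp21 read 7.01 and 6.50 against 4.16, 2.89 and 4.81 (2.80 ± 0.52, adjusted p = 0.0107), though its other probes differed by only 0.30 and 0.56 (adjusted p = 0.301 and 0.699) and the call was lost where they were averaged (0.0622). LT-HSC lay above ST-HSC on every array for these genes, as for every name called higher. The MPP means were 12.56 for Blnk, 8.78 for Ccr9, 9.07 for Arpp21 and 9.38 for Il7r, so that ST-HSC had the lowest level of the 3 populations for all of them. Igll1, the surrogate light chain, differed by 2.91 ± 0.72, adjusted p = 0.0454 but was well above background on 1 LT-HSC array, and its call was lost in 4 of 5 fits without an array (0.0866 to 0.136). Dntt, which adds bases during recombination, did not pass (1.84 ± 0.58, adjusted p = 0.108), and Rag1, of the recombinase, was not well above background on any ST-HSC array (adjusted p = 0.177). Summed over the list, the level was 165940 and 107710 on the LT-HSC arrays, 37150 to 42915 on the ST-HSC arrays and 253870 to 295900 on the MPP arrays.

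Called genes of T cells and of innate lymphoid cells were all higher in LT-HSC. On the T cell list 4 of 14 members were higher and 0 lower, against 2.93% of all names higher, with a median of 1.20. With slide as a random block 3 were called, without Cd5, and the median was 0.28 with normexp background correction, 0.53 in the authors' table and 0.10 with values raised to background. Cd8b1 read 8.66 and 7.59 against 5.63, 6.44 and 5.83 (2.16 ± 0.37, adjusted p = 0.00581), Cd5 differed by 1.43 ± 0.32, adjusted p = 0.0319 and Cd8a by 1.93 ± 0.38, adjusted p = 0.0151, and the remaining one was Thy1. The other probes of Cd8a differed by 0.52 and 1.22 (adjusted p = 0.798 and 0.0575), and its call was lost where they were averaged (0.0509), in the authors' table and with values raised to background. The defining receptor chains did not pass: Cd3g read 6.38 and 5.90 against 3.47, 4.61 and 4.80 (1.85 ± 0.75, adjusted p = 0.217), Cd3d differed by 1.65 ± 0.70, adjusted p = 0.245, and Cd3e and Cd2 overlapped between populations. Cd5 lost its call in 4 and Cd8a in 2 of the 5 fits without an array (adjusted p = 0.0585 to 0.116). The sum over the list was 4408 and 5087 on the LT-HSC arrays and 3421 to 3934 on the ST-HSC arrays.

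On a list of 20 genes of natural killer and innate lymphoid cells, chosen after values were seen, 9 were higher and 0 lower, against 2.93% of all names higher, with a median of 1.44. With slide as a random block 4 were higher, and 5 without the unnumbered LT-HSC array, ST-HSC array 2 or ST-HSC array 3. Tcf7, the TCF1 factor of early T and innate lymphoid cells, read 8.40 and 8.65 against 5.45, 4.67 and 6.38 (3.02 ± 0.47, adjusted p = 0.00337), Bcl11b read 7.63 and 7.52 against 3.68, 4.16 and 5.24 (3.21 ± 0.54, adjusted p = 0.00500) and Klrd1, a receptor chain of natural killer cells, read 8.59 and 8.68 against 5.48, 6.04 and 6.58 (2.60 ± 0.39, adjusted p = 0.00262). Unlike the plasma cell genes, these were about as high on the dim as on the pooled LT-HSC array. Il2rb, Ccl5, Icos and Klrk1 were higher by 2.12, 1.76, 1.44 and 1.15, and each lost its call in 3 or 4 of the fits without an array (0.0523 to 0.239). The killer genes were split. Gzma, a granzyme, was well above background on 1 LT-HSC array and on no ST-HSC array and was at least 14.8-fold higher (adjusted p = 0.000155), while Gzmb, another granzyme, had the opposite sign (-1.98 ± 0.67, adjusted p = 0.131) and Prf1, perforin, was not well above background on any LT-HSC array. For the whole list the summed level was 7655 and 13689 on the LT-HSC arrays and 3282 to 4538 on the ST-HSC arrays. The part of such cells in the differences was not tested.

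**Figure D4:**
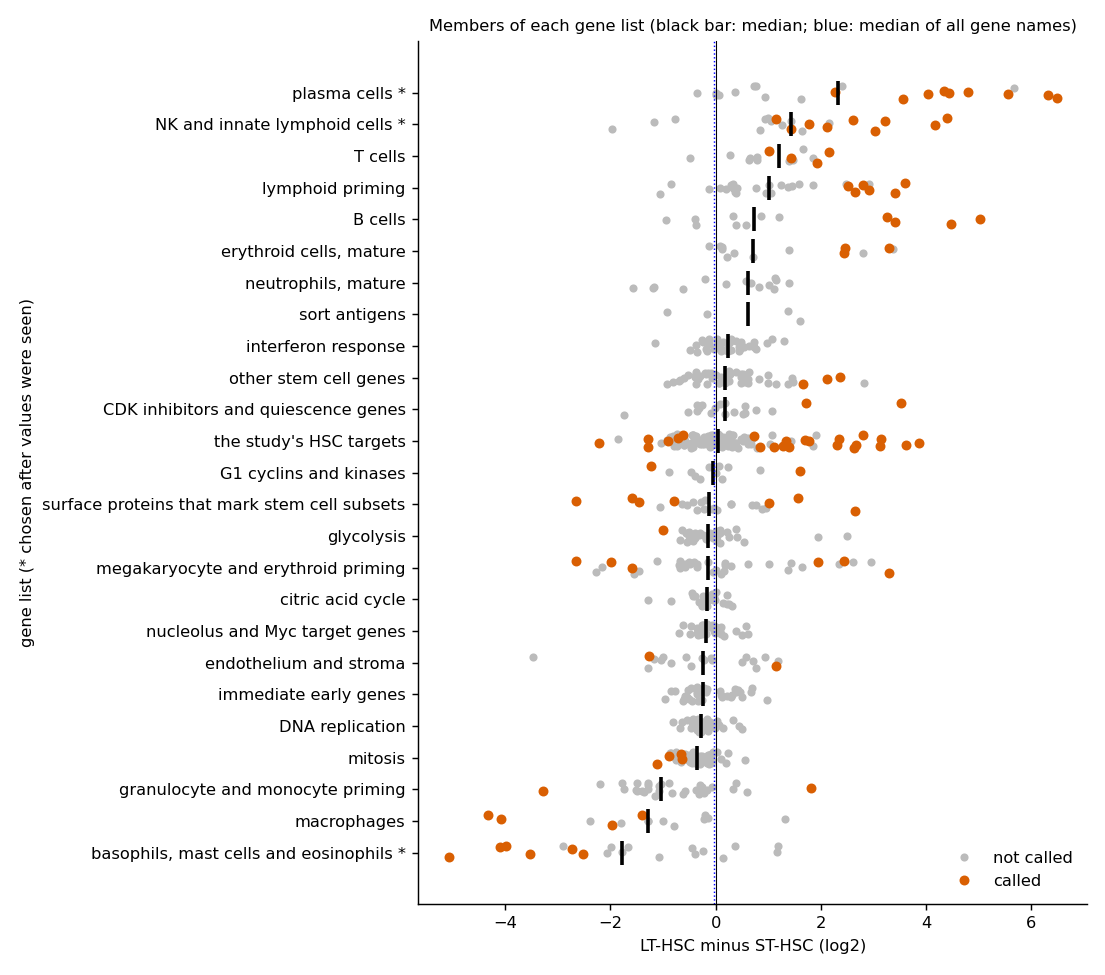
LT-HSC minus ST-HSC difference (x axis, log2) of every member of each gene list (y axis), with called members in orange, the median of each list as a black bar and the median of all 28090 names as a dotted line at -0.04. The plasma cell list has the highest median (2.33) and the list of basophils, mast cells and eosinophils the lowest (-1.78); lists with an asterisk were chosen after values were seen.

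In the opposite direction, messages of basophils and mast cells were prominent in ST-HSC. On a list of 19 genes of basophils, mast cells and eosinophils, chosen after values were seen, 6 were lower and 0 higher in LT-HSC against 0.862% of all names, with a median difference of -1.78, which was -0.61 with normexp background correction and -0.84 with values raised to background. Prss34, a basophil and mast cell protease, read 8.39 and 5.88 on the LT-HSC arrays and 12.12, 11.98 and 12.54 on the ST-HSC arrays (-5.08 ± 0.91, adjusted p = 0.00784), and Mcpt8, a protease of basophils, read 7.39 and 6.42 against 11.03, 11.07 and 10.93 (-4.10 ± 0.66, adjusted p = 0.00408). Cpa3, the mast cell carboxypeptidase, read 9.18 and 8.77 against 11.75, 12.06 and 10.70 (-2.53 ± 0.38, adjusted p = 0.00234), and Cma1, a chymase, differed by -2.72 ± 0.48, adjusted p = 0.00744. All ST-HSC arrays lay above both LT-HSC arrays for these 4 genes, as for every name called lower. The ST-HSC arrays themselves spread from 10.70 to 12.06 for Cpa3. Ms4a2, the beta chain of the high-affinity IgE receptor, was not well above background on any LT-HSC array and was at least 4.06-fold lower (adjusted p = 0.000813), and Cd200r3, a receptor of basophils, was at least 1.25-fold lower (0.000118). Both calls were lost with values raised to background. The call of Cd200r3 was also lost with 75th percentile scaling and with normexp background correction, and its second probe differed by -0.37 (adjusted p = 0.567).

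Without the unnumbered LT-HSC array Prss34 and Cma1 no longer passed (adjusted p = 0.101 and 0.0865), leaving 4 called members. The alpha chain of the IgE receptor, Fcer1a, read 5.91 and 5.75 against 8.13, 8.34 and 7.24 (-2.07 ± 0.60, adjusted p = 0.0780), and of the mast cell tryptases Tpsb2 was low (-1.07 ± 0.76, adjusted p = 0.529) and Tpsab1 stayed below that mark on all 5 arrays. The eosinophil granule genes Epx and Prg2 differed by -2.91 ± 1.13, adjusted p = 0.196 and -1.99 ± 0.95, adjusted p = 0.315. The summed level of the list was 24868 and 13475 on the LT-HSC arrays, 55376 to 81350 on the ST-HSC arrays, and 9664 to 36783 on the MPP arrays. In granulocyte-monocyte progenitors (GMP) Mcpt8 averaged 13.23 and Prss34 14.77. The part of basophils or mast cells in these differences was not tested.

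Some macrophage genes were called lower in LT-HSC too, 4 of 14 list members against 0.862% of all names, with 0 higher and a median of -1.29. The count was 2 with slide as a random block, under 75th percentile scaling and without ST-HSC array 3. The complement genes led. C1qa read 5.06 and 4.33 against 7.63, 9.39 and 9.30 (-4.07 ± 0.49, adjusted p = 0.000432) and C1qc read 6.50 and 4.99 against 9.02, 10.69 and 10.52 (-4.33 ± 0.65, adjusted p = 0.00251), each well above background on 1 LT-HSC array. C1qb read 7.62 and 7.70 against 8.69, 9.37 and 9.14 (-1.41 ± 0.27, adjusted p = 0.0127), and Emr1, the F4/80 antigen, read 7.96 and 8.65 against 9.50, 10.73 and 10.61 (-1.97 ± 0.45, adjusted p = 0.0311), with its second probe at 0.32 (adjusted p = 0.874). ST-HSC array 2 was the lowest ST-HSC array for all 4 genes. Mrc1, the mannose receptor, did not pass (-2.38 ± 0.82, adjusted p = 0.142), and Slc40a1, the iron exporter, had the opposite sign (1.31 ± 0.45, adjusted p = 0.142). Emr1 lost its call in 4 and C1qb in 2 of the 5 fits without an array (0.0506 to 0.1), whereas C1qa and C1qc held. The summed level of the list, 3741 and 6221 on the LT-HSC arrays and 5629, 8277 and 9564 on the ST-HSC arrays, overlapped between populations.

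Other myeloid genes were among the largest falls. F13a1, the A subunit of coagulation factor XIII, made by monocytes and megakaryocytes, read 7.99 and 8.84 against 11.76, 11.47 and 11.86 (-3.28 ± 0.34, adjusted p = 0.000164). Clec4a3, a myeloid lectin, read 5.23 and 4.36 against 6.47, 9.22 and 8.53 (-3.28 ± 0.79, adjusted p = 0.0413), but its call was lost without the unnumbered LT-HSC array, ST-HSC array 3 or the unnumbered ST-HSC array (0.0883 to 0.277). The following were not well above background on any LT-HSC array, so only a bound is given. Ms4a7 was at least 6.79-fold lower, Sirpb1 at least 3.97-fold, Klra2 at least 1.18-fold and Adamdec1 at least 1.06-fold (adjusted p = 0.00628, 0.00949, 0.0116 and 0.00365). Genes of other functions in this tail were Cdh1, which encodes E-cadherin (at least 3.04-fold, 0.0151), the Nogo receptor gene Rtn4r (at least 1.55-fold, 0.00598) and the growth factor gene Fgf3 (at least 1.53-fold, 0.000458). All genes given here with a bound lost their call with values raised to background. Scaling by the 75th percentile also lost Adamdec1, Klra2 and Cdh1. Normexp background correction lost Klra2, Cdh1 and Rtn4r, and Rtn4r was lost in the authors' table too. Without the unnumbered LT-HSC array Klra2 and Cdh1 were lost (0.0661 and 0.0779), and Cdh1 was lost without ST-HSC array 3 as well (0.0509).

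Genes of granulocyte and monocyte priming gave few calls. Of 31 members 1 was called lower (F13a1) and 1 higher, beside 0.862% and 2.93% of all names, and 27 were negative, with a median of -1.05. That median was -0.44 without the pooled and -1.55 without the unnumbered LT-HSC array. The higher one was Ctss, the cathepsin of antigen presentation, at 15.29 and 14.08 against 12.06, 13.32 and 13.23 (1.81 ± 0.39, adjusted p = 0.0260), which lost its call without the pooled LT-HSC array or ST-HSC array 2 (adjusted p = 0.100 and 0.0622), and also with slide as a random block. Mpo, the myeloperoxidase of granulocyte precursors, had a difference of -1.52 ± 0.75, adjusted p = 0.336, Cebpa, the factor that starts granulocyte fate, of -1.77 ± 0.50, adjusted p = 0.0738, and Ctsg of -2.21 ± 0.77, adjusted p = 0.149. The summed level of the list was 258820 and 511580 on the LT-HSC arrays and 586670 to 947530 on the ST-HSC arrays. Of 14 mature neutrophil genes 0 were called in the limma fit (0 higher and 1 lower at an unadjusted p under 0.05), with a median of 0.62 that was 1.25 without the pooled LT-HSC array, 0.24 without ST-HSC array 2, 0.27 without ST-HSC array 3 and 1.24 without the unnumbered ST-HSC array, and that exceeded the median of all names by only 0.02 without the unnumbered LT-HSC array. S100a8 read 15.43 and 16.69 against 14.91, 15.02 and 16.26 (0.67 ± 0.74, adjusted p = 0.723), and the unnumbered arrays of both populations were the highest, with summed levels of 730110 and 634920 against 300410 to 420750 on the others. The part of mature myeloid cells in the differences above was not tested.

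**Figure D5:**
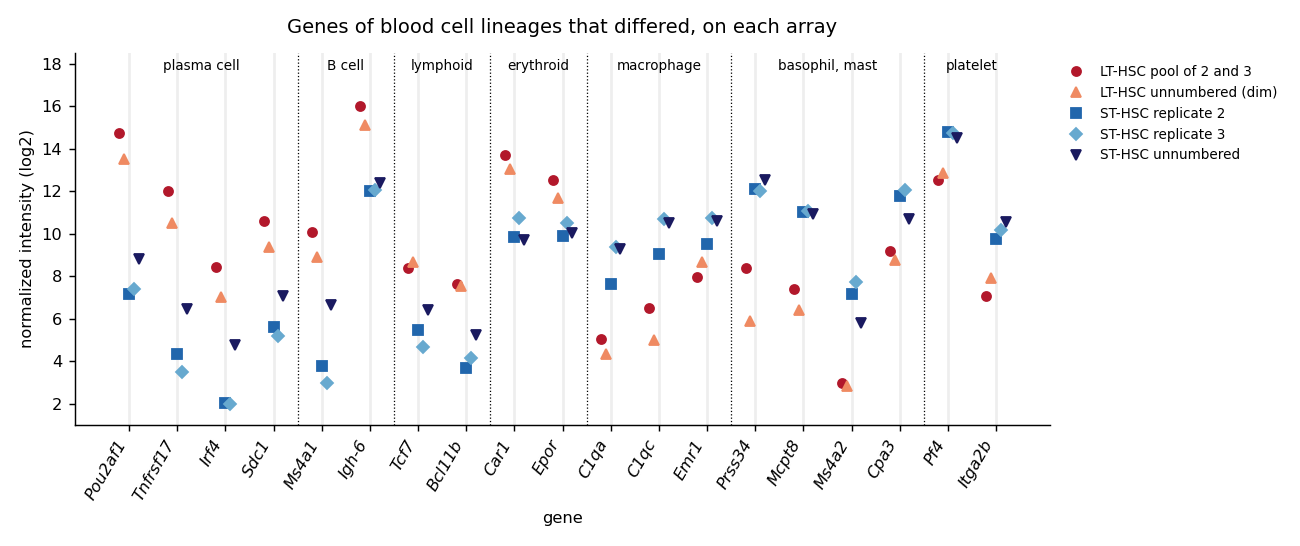
Normalized log2 intensity (y axis) of genes of blood lineages (x axis) on each LT-HSC and ST-HSC array, 1 point per array. All genes shown were called, so their direction was set by the choice. The plasma cell, B cell, lymphoid and erythroid genes shown lie higher and the macrophage, basophil, mast cell and platelet genes shown lower on both LT-HSC arrays. For example, Pou2af1 reads 14.72 and 13.51 against at most 8.79, and Mcpt8 7.39 and 6.42 against at least 10.93. Other members of these lists, among them Cd79a, Hbb-b1 and Alas2, overlapped between the populations and are not shown.

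Megakaryocyte and erythroid genes, which are primed together in stem cells, held calls in both directions. Of 37 members 3 were higher and 3 lower, against 2.93% and 0.862% of all names, and the median was -0.15. With slide as a random block no member was called (0 higher and 0 lower), and the lower calls fell to 0 without the unnumbered LT-HSC array and without ST-HSC array 3. The 3 lower were platelet genes: Itga2b and Selp, given above, and Pf4, platelet factor 4, at 12.50 and 12.87 against 14.78, 14.73 and 14.52 (-1.99 ± 0.48, adjusted p = 0.0428). Further platelet genes had negative values without passing, Ppbp at -2.16 ± 0.88, adjusted p = 0.223, Clec1b at -2.27 ± 0.72, adjusted p = 0.110 and Treml1 at -1.54 ± 0.41, adjusted p = 0.0588, while Vwf, the von Willebrand factor gene, differed by 0.18. The higher ones included genes of the red cell lineage. Car1, the carbonic anhydrase of erythroid progenitors, read 13.69 and 13.05 against 9.84, 10.71 and 9.70 (3.28 ± 0.57, adjusted p = 0.00682), and Epor, the erythropoietin receptor, read 12.50 and 11.67 against 9.88, 10.48 and 10.05 (1.95 ± 0.34, adjusted p = 0.00721). Klf1, the erythroid master factor, and Rhag came close (2.34 ± 0.60, adjusted p = 0.0535 and 2.61 ± 0.68, adjusted p = 0.0550).

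On the list of mature erythroid genes 3 of 13 were higher, among them Car1 and Kel, a blood group gene (2.46 ± 0.62, adjusted p = 0.0478), against 2.93% of all names, and 12 were positive, with a median of 0.70. That median was 0.37 without ST-HSC array 2, 0.40 without the pooled LT-HSC array, 1.14 without the unnumbered LT-HSC array and 1.13 without ST-HSC array 3. The count fell to 0 with slide as a random block, and to 1 under 75th percentile scaling and without the pooled LT-HSC array, ST-HSC array 2 or ST-HSC array 3. Summed over these genes, the level was 57470 and 40375 on the LT-HSC arrays and 14417 to 32045 on the ST-HSC arrays. The globins did not pass: Hbb-b1 read 14.22 and 13.58 against 12.91, 13.94 and 13.82 (0.34 ± 0.62, adjusted p = 0.850) and Hba-a1 read 12.04 and 12.34 against 11.19, 12.50 and 12.23 (0.22 ± 0.71, adjusted p = 0.928), and Alas2, of heme synthesis, overlapped too (-0.13). Car1 and Epor held without any single array. Kel and Pf4 were lost without any 1 of the 5 arrays (0.0675 to 0.141 and 0.0629 to 0.129). The part of red cell precursors or platelets in these differences was not tested.

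Few cell cycle genes were called between LT-HSC and ST-HSC. Of 53 mitosis genes 48 were negative, with a median difference of -0.36 beside -0.04 for all names, and 4 were lower and 0 higher, against 0.862% of all names lower. The median of the list minus that of all names was negative in the main fit and in all 17 alternatives (-0.53 to -0.20). Plk4, the kinase of centriole duplication, read 6.34 and 6.15 on the LT-HSC arrays and 7.29, 7.51 and 7.29 on the ST-HSC arrays (-1.12 ± 0.23, adjusted p = 0.0183). Ckap2, a spindle protein, read 7.88 and 7.28 against 8.41, 8.55 and 8.45 (-0.89 ± 0.16, adjusted p = 0.00989), and Kif11, a motor that separates the spindle poles, read 7.25 and 7.37 against 8.16, 8.01 and 7.72 (-0.65 ± 0.15, adjusted p = 0.0379). Melk, a mitotic kinase, differed by -0.65 ± 0.16, adjusted p = 0.0437. The 2 populations did not overlap for any of the 4, as for every called name. However, all 4 calls were lost without the unnumbered LT-HSC array. With scaling by the 75th percentile 0 members were called, as against 1 with slide as a random block. The second probe of Melk and 1 further probe of Plk4 differed by 0.15 and 0.08 (adjusted p = 0.937 and 0.979). Mki67, the proliferation marker, read 13.78 and 13.61 against 13.90, 14.04 and 14.03 (-0.30 ± 0.24, adjusted p = 0.595).

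Promoters of the mitosis genes are of interest because many are regulated through the cell cycle genes homology region (CHR, letters TTTGAA) and CCAAT boxes (letters CCAAT). RefSeq promoters of GRCm38.p6, 300 bases around each start, were searched on both strands. A gene was counted where any of its promoters held the letters. CHR letters were present in 31 of the 45 mitosis genes found (68.9%), in 9.38% of 32 DNA replication genes and in 20.2% of 27025 genes in all. CCAAT letters were present in 68.9%, 62.5% and 41.1%. The E2F letters TTTGGCGC were in 15.6% of replication genes and 0.585% of all, and TTTCCCGC in 15.6% and 1.24%. Of the 4 called genes, Kif11 and Ckap2 hold both motifs, in capitals below on either strand, and Melk and Plk4 have neither in this window.
Kif11, chr19:37376132-37376431, plus strand: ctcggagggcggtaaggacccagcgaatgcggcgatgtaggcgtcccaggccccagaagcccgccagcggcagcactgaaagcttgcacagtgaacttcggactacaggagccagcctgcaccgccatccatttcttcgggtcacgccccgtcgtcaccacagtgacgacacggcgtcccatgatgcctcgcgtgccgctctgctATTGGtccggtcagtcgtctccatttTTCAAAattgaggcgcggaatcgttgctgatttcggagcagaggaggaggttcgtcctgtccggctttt
Ckap2, chr8:22185770-22186069, minus strand: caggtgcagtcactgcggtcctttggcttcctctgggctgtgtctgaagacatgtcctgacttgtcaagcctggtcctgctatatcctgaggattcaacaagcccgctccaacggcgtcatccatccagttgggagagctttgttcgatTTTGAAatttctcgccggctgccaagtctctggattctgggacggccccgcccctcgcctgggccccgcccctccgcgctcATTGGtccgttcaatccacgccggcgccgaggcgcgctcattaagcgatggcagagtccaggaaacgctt
These matches describe the sequence and name no site of regulation in these cells.

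Most DNA replication genes were negative too, with no calls. Of 38 members 32 were negative, with a median of -0.28 beside -0.04 for all names. In the limma fit 0 were called (1 higher and 8 lower at an unadjusted p under 0.05), beside 3.79% of all names in either direction. Mcm6, of the replicative helicase, read 15.98 and 15.89 against 16.09, 16.11 and 16.46 (-0.29 ± 0.18, adjusted p = 0.479), and Pcna, the polymerase clamp, read 14.77 and 14.49 against 15.05, 15.20 and 14.31 (-0.22 ± 0.28, adjusted p = 0.765), with the unnumbered ST-HSC array lowest. Among 12 cyclins and kinases of G1, Cdk6, the kinase that ST-HSC use to leave quiescence, read 13.53 and 13.81 against 14.76, 15.02 and 14.94 (-1.24 ± 0.20, adjusted p = 0.00453) and was called on 2 of its 3 probes. Ccne1, cyclin E1, went the other way on both of its probes, at 12.83 and 12.26 against 10.84, 10.87 and 11.11 (1.60 ± 0.25, adjusted p = 0.00291). Both held without any single array, and the Cdk6 call was lost with scaling by the 75th percentile (adjusted p = 0.0577).

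Of 19 inhibitors of cyclin-dependent kinases and quiescence genes 2 were higher and 0 lower, beside 2.93% of all names higher (1 with slide as a random block, where Cdkn2b was lost). Cdkn1c, the p57 inhibitor of stem cell quiescence, had a difference of 1.07 ± 0.31, adjusted p = 0.0819 and did not pass. Cdkn2b, the p15 inhibitor, read 4.76 and 4.07 against 2.47, 2.65 and 2.98 (1.72 ± 0.35, adjusted p = 0.0181), well above background on 1 LT-HSC and 1 ST-HSC array, and was lost in 3 of the 5 fits without an array. Trp53, the p53 tumor suppressor, had the smallest p of the genes named here, at 13.11 and 12.96 against 9.79, 9.59 and 9.17 (3.52 ± 0.20, adjusted p = 1.24e-06). The other probe of Trp53 differed by only 0.14 (adjusted p = 0.920), so the 2 probes of the gene disagree. Among all called names with several probes, 42 of 274 had another probe called the same way and 0 the opposite way.

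Metabolic, growth and response genes gave few calls. Of 30 glycolysis genes 1 was called, beside 3.79% of all names in either direction. It was Pgam1, phosphoglycerate mutase, which was lower, at 13.06 and 13.51 against 14.22, 14.30 and 14.32 (-0.99 ± 0.19, adjusted p = 0.0116), a call that was lost with slide as a random block. In the citric acid cycle 0 of 25 genes of the citric acid cycle passed (0 higher and 1 lower at an unadjusted p under 0.05; Mdh2 -0.45, Cs 0.32, Idh3g -0.23). Genes of the nucleolus and Myc targets gave 0 calls in 31 (3 and 3 unadjusted), with Npm1 at -0.47 ± 0.55, adjusted p = 0.735, Fbl at -0.35 ± 0.25, adjusted p = 0.548 and Odc1, of polyamine synthesis, at 0.61 ± 0.18, adjusted p = 0.0793. Immediate early genes, which respond within minutes to stimulation or handling, gave 0 calls in 37 (1 and 3 unadjusted), with a median of -0.25, whose sign relative to all names turned without the unnumbered LT-HSC array, and overlap of Nr4a1 (-0.19) and Jund (0.22). Interferon response genes gave 0 calls in 37 (4 and 2 unadjusted), with 26 positive and a median of 0.23, which was 0.10 without the pooled LT-HSC array. Under 75th percentile scaling it exceeded that of all names by 0.01, with 19 members over and 18 under. B2m, of antigen presentation, differed by 0.28 ± 0.22, adjusted p = 0.572 and the immunoproteasome gene Psmb8 by -0.49 ± 0.25, adjusted p = 0.343.

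Markers of endothelium and stroma were at low levels, with 1 of 20 members higher and 1 lower beside 2.93% and 0.862% of all names (1 and 0 with slide as a random block). Cdh5, the endothelial cadherin, was called higher (adjusted p = 0.00941) although none of the 5 arrays read it well above background. Pdgfrb, a receptor of stromal cells, read 8.995 and 9.53 against 10.66, 10.59 and 10.34 (-1.27 ± 0.30, adjusted p = 0.0364) and was lost in 4 of the 5 fits without an array (0.0527 to 0.110). Col1a1 was not well above background on any LT-HSC array and ranged from 4.86 to 8.76 in ST-HSC (adjusted p = 0.323), and Emcn overlapped (-0.10).

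The last list was the study's own set of 115 predicted targets of miRs that are enriched in stem cells. It was selected partly on these arrays, so its counts are not independent evidence. Here 17 members were higher and 6 lower between LT-HSC and ST-HSC, beside 2.93% and 0.862% of all names (7 and 2 with slide as a random block, 8 to 13 and 2 to 5 without any 1 array), 60 were positive and the median difference was 0.05. Relative to all names that median changed sign under 75th percentile scaling, and also where the probes of a gene were averaged. Tmem56 read 8.68 and 7.35 against 3.20, 4.32 and 4.91 (3.87 ± 0.62, adjusted p = 0.00386), Rxrg, a retinoid X receptor, read 8.21 and 8.29 against 5.34, 4.66 and 5.36 (3.13 ± 0.46, adjusted p = 0.00233), Col5a1, a fibrillar collagen, read 9.93 and 8.63 against 5.51, 6.13 and 6.77 (3.14 ± 0.50, adjusted p = 0.00365), and the transporter gene Slc22a23 read 9.73 and 9.02 against 6.58, 6.75 and 6.84 (2.66 ± 0.31, adjusted p = 0.000337). All 4 held without any single array, whereas Paqr9 (3.61 ± 0.76, adjusted p = 0.0212) was lost without 4 of the 5. The second probes of Tmem56 and Col5a1 differed by 1.37 and 0.72 (adjusted p = 0.312 and 0.420), while that of Slc22a23 was called too. Among the lower members, Emid1 read 9.73 and 10.27 against 11.13, 11.47 and 11.23 (-1.28 ± 0.20, adjusted p = 0.00370), and Pde10a, a phosphodiesterase that was not well above background on any LT-HSC array, was at least 1.39-fold lower (0.0111). The second Pde10a probe differed by 0.26 (adjusted p = 0.403), and the call was lost with slide as a random block (0.0857) and with values raised to background. Dnmt3b, a de novo DNA methyltransferase, differed by -0.71 ± 0.18, adjusted p = 0.0466, and Spsb4, Mlkl and Atp10a by -1.29, -0.91 and -0.61, and each of these 4 was lost in 3 or 4 of the fits without an array.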

How the data were processed

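Total RNA of sorted cells, labelled with Cy3, was hybridized to Agilent mouse arrays, 1 color per array. The deposited scanner files hold processed signal intensity per spot, corrected for background by the scanner software, and the authors' series table holds log2 values made with limma (version not given in the sources used here). Here the intensity of 45018 spots on 17 arrays was taken to log2 and quantile-normalized. Then 1639 control spots and spots marked as feature outliers (161 missing probe values) were dropped, and spots were averaged to 41174 probes. limma 3.58.1 in R 4.3.3 fitted 1 mean per population (lmFit, eBayes), with Benjamini-Hochberg adjustment over all probes at 0.05. The methods of the study state quantile normalization and the same functions. Each of 28090 gene names was read on the probe with the highest mean over all arrays. A probe was well above background where at least 50% of its spots were. For a probe that was not so on any array of the dimmer population, the fold is a bound against the higher of its own level and the lowest signal well above background on each array. These levels were averaged over the arrays of that population. The lowest signal well above background was 4.09 on the pooled and 5.67 on the unnumbered LT-HSC array, so the bound holds for their mean and not for each array.

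Genes were named by rule: the sort antigens, the 15 largest differences each way among called gene symbols well above background on every array of the higher population, up to 6 called members of each list each way, defining markers, and 3 bright members of lists without a call. The members and lists were chosen with earlier results of these data known. The lists of plasma cells, of basophils, mast cells and eosinophils, and of natural killer and innate lymphoid cells, the immunoglobulin loci, and the genes named for contrast beside a list's calls were chosen after values were seen. The number of arrays limits the precision, and p-values measure the spread between these arrays. The fit was tested on simulated data. Some genes that the rule names are not reported here.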

Additional observations from a re-analysis of the deposited data

How the results depend on the processing

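Under the 18 alternatives below, counting each left-out array as 1, no called name was called in the opposite direction, although the sign held for only 749 of the 822 higher names with normexp, 758 in the authors' table, 518 with values raised to a floor, where a difference can be 0, and 818 with the mean of all probes of a gene, and for 241 and 238 of the 242 lower names in the authors' table and with that mean. Names that left the test are not counted here. The 822 higher and 242 lower names became 476 and 57 with scaling by the 75th percentile, 645 and 302 with normexp background correction, 692 and 287 in the authors' table, and 486 higher of 752 calls among 15523 names on probes well above background in LT-HSC or ST-HSC. They became 1596 and 1113 with scanner run as a fixed block, 101 and 14 within the run of both populations, 353 and 71 with slide as a random block, 0 and 0 on the 5 arrays alone with limma (2525 at an unadjusted p under 0.05), 316 and 26 with array weights, and 914 and 306 where the probes of a gene were averaged. Leaving out each array in turn gave 466 to 2032 higher and 101 to 1084 lower names. Of settings chosen after seeing the data, leaving out the immunoglobulin loci gave 697 and 242, and raising every value to the lowest level well above background on the dim array gave 474 and 198. A replicate block that sets the unnumbered arrays apart from the numbered ones, likewise added later, gave 1027 and 444, and the deviations of the unnumbered LT-HSC array from its group mean correlated with those of the other unnumbered arrays at -0.127 to 0.111 (-0.0604 for ST-HSC). For these shifts the cause was not tested, except that fewer arrays or fewer probes entered some fits. The medians of the lists of plasma cell, natural killer and innate lymphoid, B cell and macrophage genes were 1.47, 0.83, 0.32 and -0.60 with normexp. Within the run of both populations 5 plasma cell genes were called higher and 4 genes of basophils, mast cells and eosinophils lower. The lymphoid priming, natural killer and innate lymphoid, and B cell lists held 1 higher call each there. The T cell, macrophage, mature erythroid, megakaryocyte and erythroid, and mitosis lists held 0. Of the 110 called genes in the lists or named by rule, 61 held their call without any single array. For 273 of the higher names no array of the 5 was well above background, which limits the measurement of their size. The labels give no replicate number that an LT-HSC and an ST-HSC array share singly, so the unnumbered arrays share only the lack of a number.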
